A study of Homo sapiens with 12 samples.

Results

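Accessible chromatin was described around 8 genes, namely the MYC family members MYC, MYCN and MYCL and the pluripotency factors POU5F1, SOX2, KLF4, NANOG and LIN28B. The genes were chosen by name from the 62700 genes of the GENCODE v44 annotation, and every 100-bp bin of the deposited tables within 100 kb of one of their transcription start sites (TSS) was taken. These windows held 716 of the 709366 bins of the DU-145 table and 570 of the 472994 bins of the BT-549 table. Adjoining bins were joined into accessible regions, and the windows then held 77 of 85789 regions in DU-145 and 52 of 51029 regions in BT-549. A region within 1 kb of a TSS of the gene itself was called its promoter region, a region within 1 kb of a TSS of any other gene was kept apart, and the rest were called distal.

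The cells were of the human lines DU-145, from a castration-resistant prostate cancer (CRPC), and BT-549, from a triple-negative breast cancer (TNBC). Both carried a tetracycline-inducible short hairpin RNA against MUC1 (tet-MUC1shRNA). The 4 groups were DU-145 cells with vehicle, DU-145 cells with doxycycline (DOX), BT-549 cells with vehicle and BT-549 cells with DOX, each with 3 libraries, and the treatment lasted 7 days. The vehicle was 0.1% DMSO, although 1 of the labels calls the same cells untreated. The hairpin was present in all groups, a control hairpin was not analysed here, and the effect of DOX and that of MUC1 silencing therefore share 1 contrast. In ATAC-seq, a transposase cuts DNA where it is exposed, and the coverage of a bin by the resulting fragments measures its accessibility.

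MYC, MYCN and MYCL are basic helix-loop-helix leucine zipper proteins that dimerize with MAX, bind the E-box and drive growth and biosynthesis. POU5F1 (OCT4), SOX2 and NANOG form the core transcription factor circuit of embryonic stem cells, and POU5F1, SOX2, KLF4 and MYC together can return differentiated cells to pluripotency. LIN28B is an RNA-binding protein that blocks maturation of the let-7 microRNAs, which in turn repress MYC. In many carcinomas these genes are linked to dedifferentiation and self-renewal. The study asked whether MUC1-C acts on chromatin in such a stem-like state, and the comparison of DOX with vehicle in each line addresses that question.

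Summed over its bins, a DU-145 library held 12370094 to 25232000. Vehicle libraries of BT-549 held 9142900 to 13606129, and the DOX libraries of that line held 2502510 to 3267024. Levels are given as CPM per bin, the mean bin value scaled by that sum, a scale per length on which regions can be compared, and changes as the log2 fold change of DOX against vehicle with its SE from edgeR. A region was called at a Benjamini-Hochberg adjusted p under 0.05 over all regions of the line. The epithelial genes EPCAM, CDH1, KRT8 and KRT18 had a promoter region in DU-145 and none in BT-549, and of the mesenchymal genes VIM, ZEB1 and FN1 had one in both lines and CDH2 in BT-549 alone. No promoter region was found for KLK3 and KLK2 in DU-145, for ESR1 and PGR in BT-549, or for the lymphocyte gene CD3E in either line. A promoter region of PTPRC, which encodes the leukocyte antigen CD45, was at 0.127 in vehicle and 0.812 CPM per bin in DOX libraries of DU-145, and its part in the results was not tested. Fewer open cells and less accessibility per cell cannot be told apart in these bulk libraries. The promoter of MUC1 did not pass the test, at -0.17 (SE 0.08, adjusted p = 0.0584) in DU-145 and 0.02 (SE 0.10, adjusted p = 0.91) in BT-549 cells, which does not measure the knockdown.

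A few of the regions described here are shown by 300 bases around their highest bin, read from the plus strand of GRCh38. They were chosen because the DOX effect there was large or differed between the lines. Capitals mark the AP-1 motif TGANTCA, the site of JUN and FOS dimers, and the E-box CACGTG, both searched on either strand. The sequence of LIN28B lies at its promoter, that of POU5F1 in a region 22.8 kb upstream of the gene, that of KLF4 57.9 kb upstream, that of SOX2 82.4 kb upstream, that of MYCN 99.8 kb upstream and that of MYCL 32.0 kb upstream.
LIN28B, chr6:104941301-104941600: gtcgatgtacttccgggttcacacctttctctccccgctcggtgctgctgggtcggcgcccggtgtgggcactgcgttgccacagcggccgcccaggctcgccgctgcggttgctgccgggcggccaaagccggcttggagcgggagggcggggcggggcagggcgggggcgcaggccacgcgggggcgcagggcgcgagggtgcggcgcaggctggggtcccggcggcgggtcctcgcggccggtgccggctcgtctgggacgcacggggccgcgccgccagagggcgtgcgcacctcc
POU5F1, chr6:31203601-31203900: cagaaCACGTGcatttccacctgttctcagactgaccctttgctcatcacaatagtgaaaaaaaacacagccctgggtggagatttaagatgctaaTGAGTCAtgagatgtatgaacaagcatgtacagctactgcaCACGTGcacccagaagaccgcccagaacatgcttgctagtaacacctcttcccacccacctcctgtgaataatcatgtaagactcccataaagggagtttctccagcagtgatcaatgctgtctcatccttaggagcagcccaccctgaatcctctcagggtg
KLF4, chr9:107548401-107548700: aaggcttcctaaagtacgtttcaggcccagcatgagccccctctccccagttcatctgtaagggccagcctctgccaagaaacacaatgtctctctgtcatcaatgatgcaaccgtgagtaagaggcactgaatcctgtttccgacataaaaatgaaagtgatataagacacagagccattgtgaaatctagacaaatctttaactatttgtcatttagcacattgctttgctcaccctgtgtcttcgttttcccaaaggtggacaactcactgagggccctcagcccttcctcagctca
SOX2, chr3:181629101-181629400: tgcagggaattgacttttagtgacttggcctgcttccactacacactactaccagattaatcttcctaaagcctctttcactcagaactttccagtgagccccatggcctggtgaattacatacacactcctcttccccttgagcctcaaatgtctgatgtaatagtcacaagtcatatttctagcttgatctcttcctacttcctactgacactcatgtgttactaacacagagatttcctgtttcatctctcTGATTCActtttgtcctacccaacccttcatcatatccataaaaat
MYCN, chr2:15840201-15840500: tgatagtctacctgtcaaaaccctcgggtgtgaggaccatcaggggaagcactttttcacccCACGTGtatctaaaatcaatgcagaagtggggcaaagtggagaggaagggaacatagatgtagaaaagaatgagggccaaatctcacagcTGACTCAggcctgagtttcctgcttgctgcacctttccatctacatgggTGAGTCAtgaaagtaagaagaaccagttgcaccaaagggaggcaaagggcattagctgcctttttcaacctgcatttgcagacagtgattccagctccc
MYCL, chr1:39934401-39934700: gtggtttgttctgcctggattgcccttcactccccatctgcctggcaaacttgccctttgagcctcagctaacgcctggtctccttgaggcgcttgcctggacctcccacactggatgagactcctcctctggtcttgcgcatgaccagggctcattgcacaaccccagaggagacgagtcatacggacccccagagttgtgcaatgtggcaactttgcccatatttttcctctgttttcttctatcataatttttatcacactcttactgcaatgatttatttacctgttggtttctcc
The POU5F1 sequence held 1 AP-1 motif and 2 E-boxes, the SOX2 sequence 1 AP-1 motif, and the MYCN sequence 2 AP-1 motifs and 1 E-box. The other sequences held neither. The LIN28B sequence had a GC content of 78.7%, against 41.7% to 50.3% in the distal sequences.

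In DU-145 cells, DOX was accompanied by lower accessibility at the promoters of MYC, MYCL and LIN28B and by higher accessibility at that of SOX2. Distal regions moved both ways, with the largest fall upstream of MYCL and the largest rise upstream of SOX2. Of the 77 regions, 22 rose and 13 fell, against 35.6% and 16.7% of all regions of the line (52.3% called), so that the windows did not hold more calls than the table as a whole. Their median log2 fold change was 0.16, and that of all regions was 0.24. With TMM factors the median of all regions moved to 0.03, and 18 regions of the windows rose and 20 fell. With the trend in GC content removed 16 rose and 24 fell, with loess offsets 16 rose and 21 fell, at the highest bin of each region 17 rose and 16 fell, and with DESeq2 14 rose and 18 fell. Of all called regions of the line, 68.15% rose in the main fit, 53.11% with TMM factors and 44.92% with the GC trend removed. The shares in the windows were 62.86%, 47.37% and 40.0%. With loess offsets, the highest bin and DESeq2, 51.61%, 61.48% and 49.91% of all called regions rose. In the windows these shares were 43.24%, 51.52% and 43.75%.

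The promoter of MYC, a region of 57 bins at chr8:127734401-127740100 that overlaps untranslated and coding exons of the gene, had levels of 2.07, 2.23 and 2.16 in the vehicle and 1.38, 1.501 and 1.37 CPM per bin in the DOX libraries. The groups did not overlap, and the level fell 1.52-fold (log2 fold change -0.60, SE 0.07, adjusted p = 2.24e-08). Under all 15 alternatives this fall remained past the threshold, with log2 fold changes from -0.85 to -0.30. Of all promoter regions, 27.9% fell and 17.5% rose in this line (45.3% called), and 3 of the 7 promoter regions of the 8 genes fell. Promoter regions of the line differed by level, with a median of -0.20 above and 0.19 below the median level, and MYC was at percentile 70.0 by vehicle level.

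The promoter of MYCL, at chr1:39900901-39902700, was at percentile 91.7 of promoter regions by vehicle level. Its levels were 4.17, 4.11 and 4.15 in the vehicle and 3.29, 3.92 and 3.43 CPM per bin in the DOX libraries, and the fall was small (-0.22, SE 0.08, adjusted p = 0.0215). It was lost with loess offsets (adjusted p = 0.99) and without DOX replicate 1, DOX replicate 3 or vehicle replicate 2 (adjusted p = 0.0981, 0.0954 and 0.0511). The region of MYCN, at chr2:15939601-15940400 over an exon of the antisense gene MYCNOS, was weakly accessible at 0.435, 0.314 and 0.469 in the vehicle and 0.586, 0.252 and 0.539 CPM per bin in the DOX libraries. The MYCN groups overlapped (0.19, SE 0.27, adjusted p = 0.571), and the sign turned with TMM factors. The MYC family thus ranged from the highly accessible MYCL to the scarcely accessible MYCN promoter in these cells.

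The 3 TSSs of LIN28B spread from chr6:104936616 to chr6:104957107, and its only promoter region lay 0.3 kb past the middle one. At this region of 7 bins, chr6:104941201-104941900 in an intron, the levels were 1.01, 0.979 and 1.06 in the vehicle and 0.530, 0.603 and 0.736 CPM per bin in the DOX libraries. Every DOX library was below every vehicle library, and the level fell 1.61-fold (-0.68, SE 0.19, adjusted p = 0.00297). The fall remained past the threshold under all 15 alternatives, with log2 fold changes from -1.03 to -0.59. SOX2, at chr3:181710901-181713000, had levels of 0.661, 0.779 and 0.584 in the vehicle and 1.002, 0.818 and 0.906 CPM per bin in the DOX libraries. The SOX2 promoter rose 1.33-fold (0.41, SE 0.13, adjusted p = 0.00981), but not past the threshold with TMM factors (0.20, adjusted p = 0.21), loess offsets (0.32, adjusted p = 0.0501), DESeq2 or the highest bin, nor without DOX replicate 1 or vehicle replicate 3 (adjusted p = 0.0551 and 0.0596).

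The KLF4 promoter, a region of 33 bins at chr9:107487601-107490900, had levels of 2.38, 2.09 and 2.05 in the vehicle and 2.43, 2.51 and 2.41 CPM per bin in the DOX libraries. The difference did not pass the test (0.17, SE 0.08, adjusted p = 0.068), although the groups did not overlap. With loess offsets it was 0.42 (adjusted p = 4.46e-05), without vehicle replicate 1 it was 0.24 (adjusted p = 0.0148), and with TMM factors it was -0.04 (adjusted p = 0.746). The POU5F1 promoter region, at chr6:31180501-31181000, lies at the most upstream of the 5 TSSs of the gene, which spread from chr6:31166838 to chr6:31180731. No region of the table lay within 1 kb of the innermost TSS. The POU5F1 region had levels of 1.24, 1.04 and 0.976 in the vehicle and 1.14, 1.43 and 1.04 CPM per bin in the DOX libraries. Those groups overlapped (0.16, SE 0.19, adjusted p = 0.511), and the sign turned with TMM factors (-0.05, adjusted p = 0.866). The NANOG promoter held no bin of the table.

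**Figure D1:**
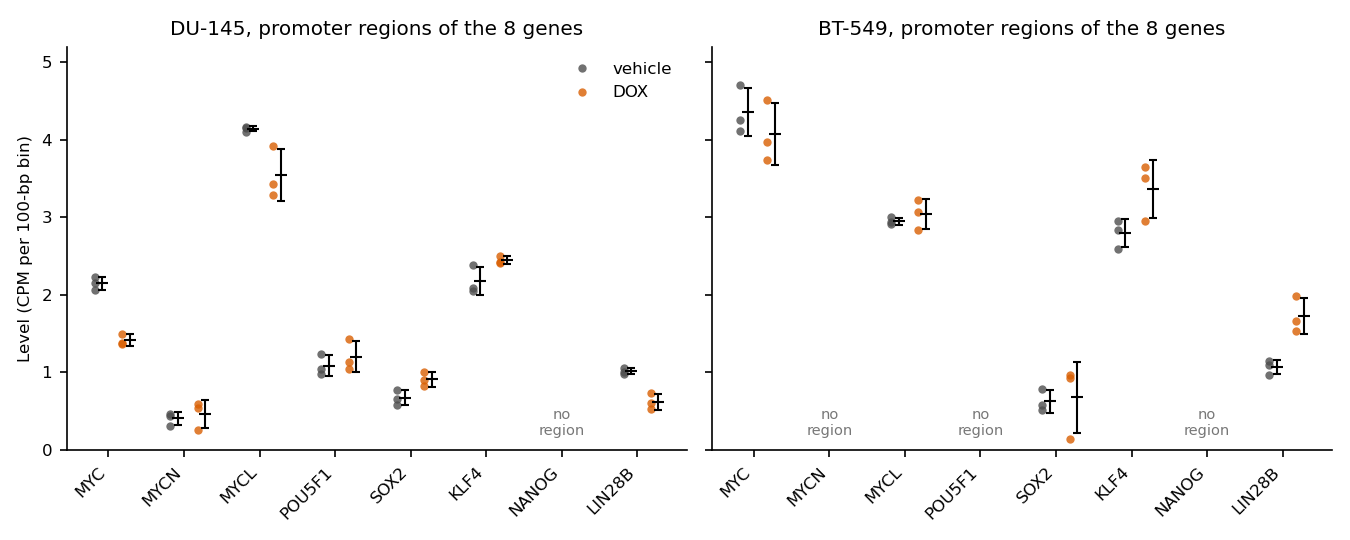
Level of the promoter region of each gene in CPM per 100-bp bin, on linear axes from 0, in the 3 vehicle and 3 DOX libraries, with DU-145 on the left and BT-549 on the right; points are libraries and bars the mean ± SD. The MYC and LIN28B promoters were lower with DOX in DU-145, LIN28B was higher with DOX in BT-549, and NANOG had no region in either line.

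Among the distal regions in DU-145, 16 of 47 rose and 7 fell, against 42.4% and 12.5% of all distal regions (54.9% called). Their median was 0.32, and that of all distal regions was 0.41. The table keeps regions found in at least 3 libraries of either condition. A region scarcely accessible in one group can thus have entered through the other group alone. Its change and p-value are then in part set by this filter. Among the DU-145 regions named below, this can apply to rises around MYCL, MYCN, SOX2, POU5F1, NANOG, KLF4 and LIN28B, and to falls around MYC, MYCL and KLF4. Around MYC, 1 of 11 distal regions rose and 3 fell. A region 2.5 kb past the last MYC TSS, at chr8:127741601-127743800, had 1.39, 1.23 and 1.28 in the vehicle and 1.66, 1.87 and 1.5 CPM per bin in the DOX libraries and rose (0.37, SE 0.10, adjusted p = 0.00269). This rise was lost with TMM factors (0.16, adjusted p = 0.206), and with the GC trend removed the sign turned (-0.24, adjusted p = 0.0659). The region at chr8:127760701-127761000 fell 2.21-fold (-1.14, SE 0.37, adjusted p = 0.00978), from 0.450, 0.854 and 0.374 to 0.347, 0.183 and 0.289 CPM per bin, but without vehicle replicate 2 the change was -0.65 (adjusted p = 0.231) and without DOX replicate 2 it was -0.90 (adjusted p = 0.0701). The region at chr8:127831201-127832500 in an intron of PVT1, a long noncoding RNA gene next to MYC, went from 2.88, 2.89 and 2.70 to 2.19, 2.17 and 2.17 CPM per bin and also fell (-0.38, SE 0.10, adjusted p = 0.00126).

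The largest fall of the windows lay 32.0 kb upstream of MYCL, between that gene and MFSD2A. The region at chr1:39934301-39934800 had levels of 0.763, 0.537 and 0.631 in the vehicle and 0.0446, 0.0862 and 0.0776 CPM per bin in the DOX libraries. It was close to closed in all 3 DOX libraries, and fell 8.59-fold (-3.10, SE 0.35, adjusted p = 5.47e-09). In the same window a region 88.1 kb upstream, at chr1:39990401-39990800, went from 0.0590, 0.0620 and 0.175 to 0.516, 0.538 and 0.515 CPM per bin and rose 5.62-fold (2.49, SE 0.41, adjusted p = 4.44e-06). Both changes remained past the threshold under all 14 alternatives. The 1 distal region of MYCN, at chr2:15840101-15840700, went from 0.142, 0.137 and 0.0799 to 0.509, 0.461 and 0.541 CPM per bin, a 4.001-fold rise (2.0, SE 0.31, adjusted p = 1.92e-06).

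The largest rise of the windows lay 82.4 kb upstream of SOX2, in introns of the noncoding RNA gene SOX2-OT. The region at chr3:181629101-181629500 went from 0.101, 0.0453 and 0.0657 in the vehicle to 0.644, 0.611 and 0.519 CPM per bin in the DOX libraries. It was higher in every DOX library than in any vehicle library, with an 8.82-fold rise (3.14, SE 0.41, adjusted p = 8.65e-08). With so little vehicle coverage, it may have entered the table through the DOX libraries alone. Of the 8 distal regions of SOX2, 3 rose and 1 fell, against 42.4% and 12.5% of all distal regions of the line. The one that fell, at chr3:181739301-181740200, changed little (-0.32, SE 0.14, adjusted p = 0.0478), and the call was lost without any 1 of 4 libraries (DOX replicates 2 and 3 and vehicle replicates 1 and 3, adjusted p from 0.0619 to 0.284).

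POU5F1 lies in the major histocompatibility region of chromosome 6. Of its 9 distal regions 5 rose and none fell, not far from the 42.4% and 12.5% of all distal regions of the line. The largest rise was at chr6:31143201-31143500, in an exon of CCHCR1, from 0.120, 0.162 and 0.0744 to 0.396, 0.379 and 0.534 CPM per bin (1.73, SE 0.43, adjusted p = 0.000886). It was past the threshold except with loess offsets (0.97, adjusted p = 0.0619). Another region, at chr6:31203101-31204400 over an exon of the noncoding gene HCG27, had 1.62, 2.10 and 1.64 in the vehicle and 3.26, 3.64 and 3.06 CPM per bin in the DOX libraries, and rose as well (0.89, SE 0.11, adjusted p = 2.21e-08). The NANOG window had a rise at chr12:7825701-7826200, in an intron of the glucose transporter gene SLC2A14, from 0.116, 0.152 and 0.276 to 0.554, 0.680 and 0.565 CPM per bin (1.79, SE 0.32, adjusted p = 1.4e-05).

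KLF4 was the gene with falls of the greatest size next to that of MYCL. A region 49.5 kb downstream, at chr9:107438201-107438900 in an intron of LINC01509, went from 0.683, 0.977 and 1.081 to 0.296, 0.208 and 0.160 CPM per bin and fell 4.16-fold (-2.06, SE 0.25, adjusted p = 1.95e-08). A region 57.9 kb upstream, at chr9:107548401-107549000, rose from 0.184, 0.271 and 0.2996 to 0.636, 0.478 and 0.527 CPM per bin (1.11, SE 0.27, adjusted p = 0.000913). That rise was lost with loess offsets (0.63, adjusted p = 0.0537) and with the GC trend removed (0.58, adjusted p = 0.0702). The one distal region of LIN28B, at chr6:104908001-104908500 in an intron of LIN28B-AS1, went from 0.183, 0.216 and 0.170 to 0.531, 0.545 and 0.539 CPM per bin and rose 2.72-fold (1.44, SE 0.30, adjusted p = 0.000108), opposite to the promoter of the same gene.

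In BT-549 cells, 2 regions of the windows rose and 11 fell with DOX. The rises were a distal region upstream of MYC and the LIN28B promoter, and the falls lay around MYC, MYCN, POU5F1, KLF4 and NANOG. Over all 51029 regions of the line, 11.6% rose and 16.8% fell (28.3% called), and the median was -0.09 against -0.08 in the windows. The split was 3 rises and 7 falls with DESeq2. At the highest bin of each region 1 rose and 6 fell, and leaving out vehicle replicate 2 or vehicle replicate 3 left 1 rise and 7 falls. Of all called regions of the line, 40.81% rose in the main fit, 53.89% with DESeq2 and 45.92% at the highest bin. Without vehicle replicate 2 or vehicle replicate 3 the shares were 40.51% and 40.25%. The DOX libraries of this line were shallow, which widens the error of every weakly accessible region. They held 30450 to 39837 peaks a library, against 65204 to 93929 with vehicle. Regions of this table can thus have entered through the vehicle libraries alone, and their falls and p-values are then in part set by the filter. This can apply to the falls named below.

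The region 65.5 kb upstream of MYC, at chr8:127667701-127669900, was the clearest change of the windows in BT-549. Its levels were 2.79, 2.72 and 2.76 in the vehicle and 7.74, 8.56 and 8.22 CPM per bin in the DOX libraries. All 3 DOX libraries stood far above the vehicle libraries, and the level rose 2.97-fold (1.57, SE 0.10, adjusted p = 3.58e-12), with log2 fold changes from 1.43 to 1.83 under the 14 alternatives. Its highest bin reached 29.2 ± 3.83 CPM (SD, n = 3) with DOX, above the 14.2 ± 1.09 CPM of the highest vehicle bin, which lay at the MYC promoter itself. In DU-145 the corresponding region had 5.28, 4.65 and 4.64 in the vehicle and 5.39, 4.79 and 5.08 CPM per bin in the DOX libraries, which overlapped (0.07, SE 0.08, adjusted p = 0.508). Its highest bin in DU-145 was at 18.6 ± 1.49 CPM in vehicle and 14.7 ± 1.28 CPM with DOX (SD, n = 3). The annotation places an exon of the noncoding gene ENSG00000286010 there.

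The MYC promoter itself had levels of 4.26, 4.12 and 4.71 in BT-549 vehicle and 3.75, 3.97 and 4.52 CPM per bin in BT-549 DOX libraries. These overlapped (-0.09, SE 0.09, adjusted p = 0.467), and the value was -0.33 (adjusted p = 0.0058) with loess offsets and 0.00 (adjusted p = 0.999) with TMM factors. Of the 15 distal regions of MYC, 1 rose and 3 fell, against 9.27% and 21.4% of all distal regions of the line (30.7% called). The largest of the falls, at chr8:127760201-127761300, went from 1.41, 1.29 and 1.44 to 0.639, 0.616 and 0.423 CPM per bin (-1.33, SE 0.27, adjusted p = 0.00054). It overlaps the region 21.6 kb past the MYC TSS that fell in DU-145. The region in PVT1 at chr8:127831201-127832300 fell in BT-549 too (-0.87, SE 0.26, adjusted p = 0.0113).

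**Figure D2:**
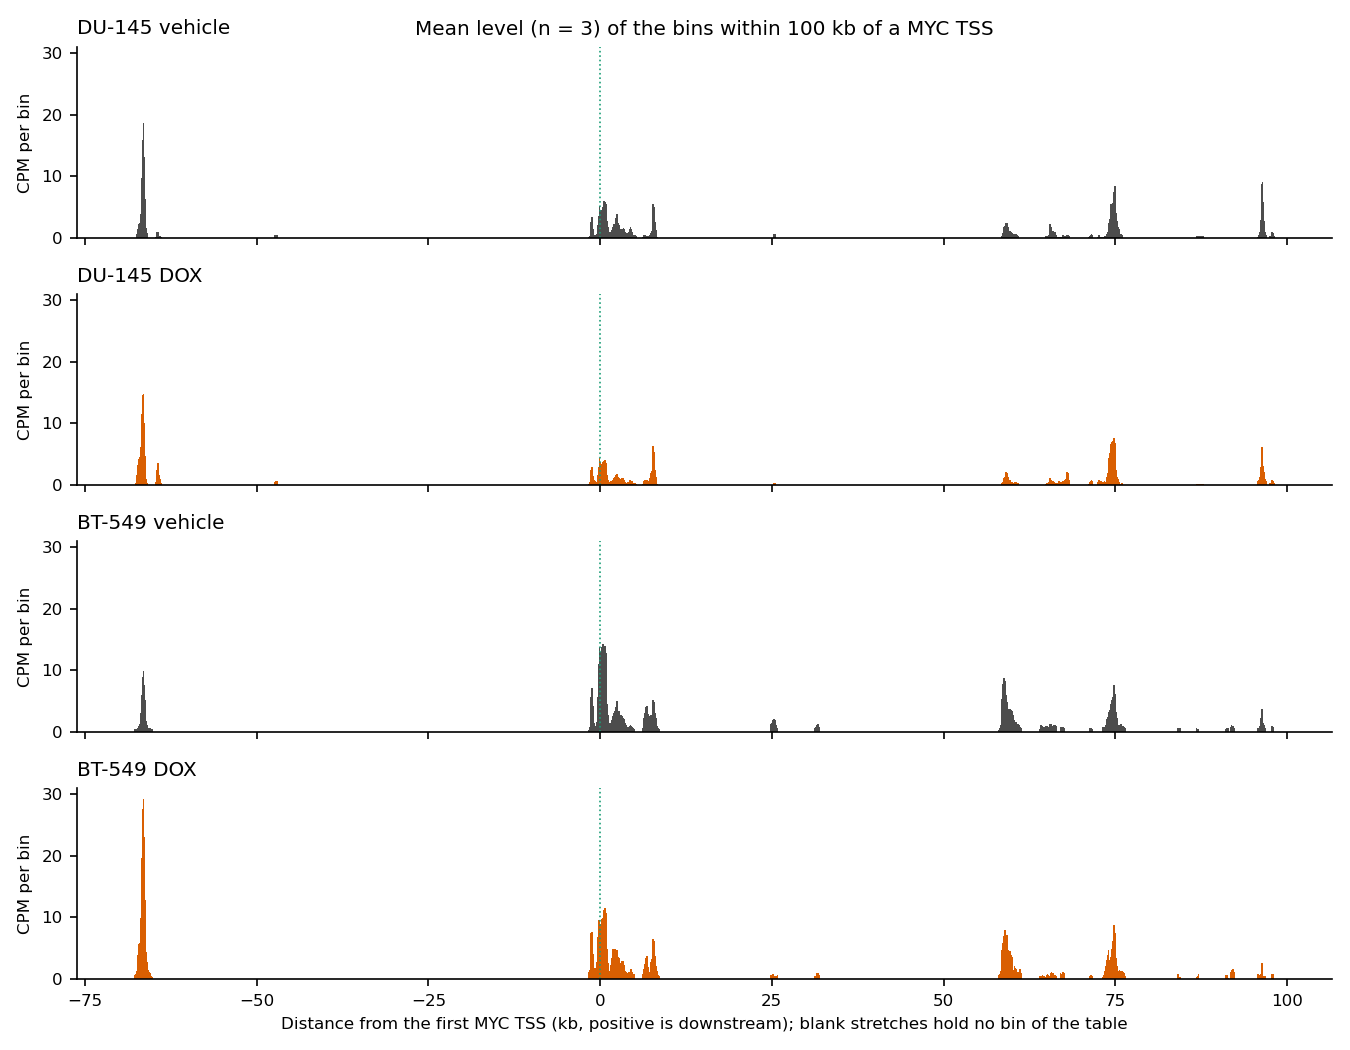
Mean level of each 100-bp bin within 100 kb of a MYC TSS, in CPM per bin (linear axis from 0, the same in all panels, n = 3 libraries), against the distance from the first MYC TSS in kb. The panels are DU-145 vehicle, DU-145 DOX, BT-549 vehicle and BT-549 DOX. The bins at -66.5 kb reach 29.2 CPM in BT-549 with DOX, and the bins at the promoter are lower with DOX in DU-145.

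The LIN28B promoter region, at chr6:104940801-104941900, is at the same middle TSS. It also overlaps an exon of the antisense gene LIN28B-AS1, and the genes cannot be told apart there. Its levels were 1.15, 0.969 and 1.10 in BT-549 vehicle and 1.99, 1.67 and 1.54 CPM per bin in BT-549 DOX libraries. The groups did not overlap and the level rose 1.60-fold (0.68, SE 0.22, adjusted p = 0.0214). This was the 1 of 5 promoter regions of the 8 genes that rose, against 15.4% of all promoter regions, and no promoter fell, against 8.9% (24.3% called). The call was lost with the GC trend removed (0.46, adjusted p = 0.137), at the highest bin (0.84, adjusted p = 0.0895), and without DOX replicate 1 or any 1 vehicle library (adjusted p from 0.0553 to 0.0919). KLF4 had levels of 2.96, 2.59 and 2.84 in the vehicle and 2.95, 3.51 and 3.65 CPM per bin in the DOX libraries, which overlapped (0.27, SE 0.11, adjusted p = 0.0573). With TMM factors the KLF4 difference passed the threshold (0.37, adjusted p = 0.0127), as it did with DESeq2 (adjusted p = 0.0115), with a promoter of 3 kb (adjusted p = 0.0492) and without DOX replicate 1 (adjusted p = 0.0163).

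The MYCL promoter did not pass the test in BT-549 (0.04, SE 0.12, adjusted p = 0.832), with 3.003, 2.94 and 2.92 in the vehicle and 3.22, 2.84 and 3.07 CPM per bin in the DOX libraries. SOX2 had a short promoter region of 4 bins with 0.577, 0.512 and 0.786 in the vehicle and 0.962, 0.145 and 0.924 CPM per bin in the DOX libraries, so that the DOX libraries ranged more widely than the groups differed (0.14, SE 0.48, adjusted p = 0.862). MYCN, POU5F1 and NANOG had no promoter region in the BT-549 table. The table lists only regions found in at least 3 libraries, and their absence from it gives no level.

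Away from the promoters, the DOX libraries of BT-549 were lower at regions of POU5F1, KLF4 and MYCN. The region 22.8 kb upstream of POU5F1, at chr6:31203501-31204500, had 2.03, 2.66 and 2.71 in the vehicle and 0.945, 1.13 and 1.11 CPM per bin in the DOX libraries and fell 2.33-fold (-1.22, SE 0.22, adjusted p = 0.000147). It overlaps the region that rose in DU-145. The region 57.4 kb upstream of KLF4, at chr9:107547901-107549200, fell from 2.37, 3.09 and 3.24 to 0.893, 1.16 and 1.39 CPM per bin (-1.31, SE 0.20, adjusted p = 1.34e-05), again at a place that rose in DU-145. The fall of KLF4 of the greatest size, at chr9:107481201-107481600, was from 0.537, 0.602 and 1.001 to 0.232, 0.108 and 0.302 CPM per bin (-1.73, SE 0.59, adjusted p = 0.0276), and 7 of 14 alternatives lost it, among them the fits without DOX replicate 1, DOX replicate 2 or vehicle replicate 3 (adjusted p = 0.0637, 0.0818 and 0.115).

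The distal region of MYCN, at chr2:15912201-15912600, went from 1.44, 1.31 and 1.24 to 0.999, 0.395 and 0.377 CPM per bin (-1.21, SE 0.42, adjusted p = 0.0302), and 10 of 14 alternatives lost the call. Among them were the fits without any 1 library other than DOX replicate 1, with adjusted p from 0.0664 to 0.132. The MYCN window held 1 to 3 peaks a library with vehicle and 0 to 1 with DOX, so this region can have entered through the vehicle libraries alone. The NANOG window held 1 region in BT-549, at chr12:7859601-7861100 in an intron of SLC2A14 and within 1 kb of a TSS of ENSG00000241828. It went from 2.44, 3.21 and 3.21 to 1.19, 1.36 and 1.002 CPM per bin and fell (-1.33, SE 0.18, adjusted p = 3.32e-06). No distal region of MYCL was called in this line. SOX2, NANOG and LIN28B had no distal region there, while none of the 5 of MYCL passed the test.

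**Figure D3:**
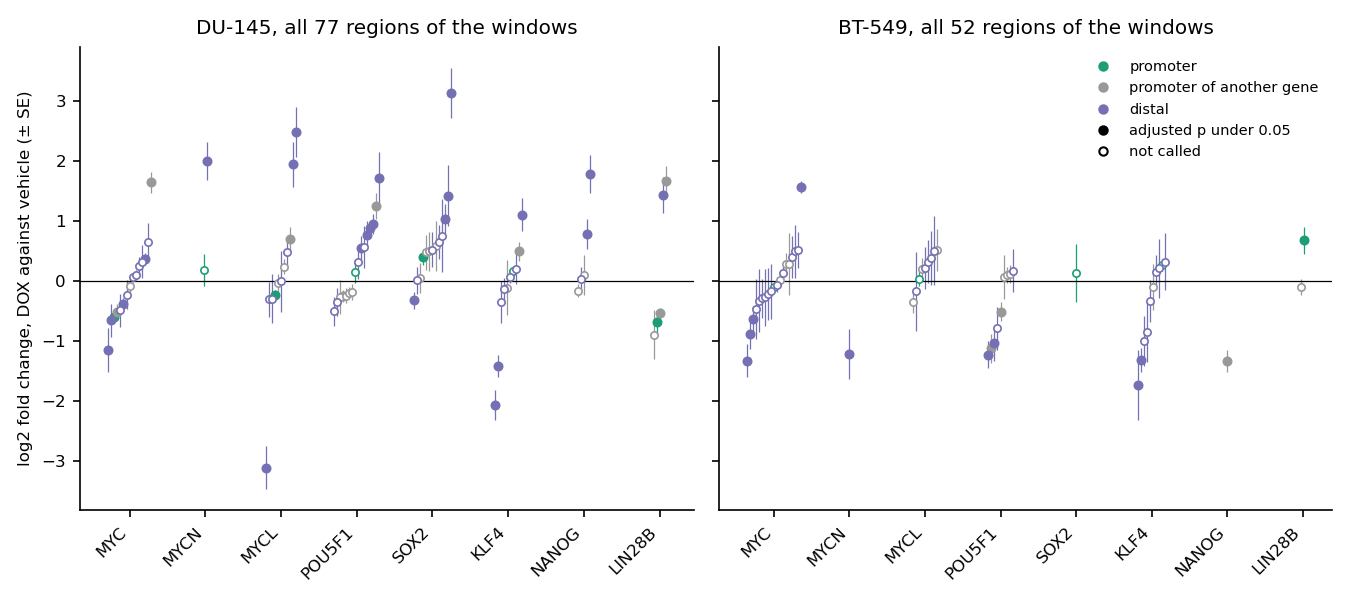
log2 fold change of DOX against vehicle (± SE from edgeR) of all 77 regions of the windows in DU-145 (left) and all 52 in BT-549 (right), grouped by gene and ordered by value within a gene. Filled points passed an adjusted p of 0.05, and colors give the class of region. The values range from -3.10 at MYCL to 3.14 at SOX2 in DU-145. With TMM factors more regions of the windows fell than rose in DU-145, while 53.11% of all called regions of the line rose.

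Single bins were also called as differential accessible regions (DARs) with the study's cutoffs, that is a 2-fold change or more with an adjusted p below 1e-05 (DU-145) or below 0.01 (BT-549). In DU-145, 20 of the 716 bins of the windows opened and 11 closed, against 5% and 1.59% of all bins (6.58% either way). Of the closing bins, 7 were distal to KLF4, and of the opening bins, 10 were in the MYC window. With TMM factors 13 opened and 17 closed, and with DESeq2, the tool of the study, 1 opened and 4 closed. Of all 709226 tested bins, 29040 opened and 15214 closed with TMM factors, and 6517 opened and 6430 closed with DESeq2. Without vehicle replicate 2 there were 15 DARs and without DOX replicate 2 there were 18. In BT-549, 12 of the 570 bins opened and 19 closed, against 2.07% and 2.87% of all bins (4.93% either way). All 12 opening bins were distal to MYC, where 1 of 15 regions rose, and 11 of them passed the cutoff of the other line as well. Adjoining bins share fragments and are not separate sites. With DESeq2 11 opened and 3 closed, and leaving out 1 DOX library left 17 to 19 DARs. Of all 472935 tested bins, 4446 opened and 3223 closed with DESeq2.

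Whether the lines responded differently to DOX was tested by an interaction term in 1 fit of all 12 libraries over the 35535 regions made of bins held by both tables. Of the 39 shared regions of the windows 12 differed, against 36.6% of all shared regions. The effect was higher in DU-145 at 8 of them and higher in BT-549 at 4, against 26% and 10.6% of all. Of the 5 promoter regions of the genes 2 differed, both higher in BT-549, against 30.8% of all shared promoter regions (12.9% higher in DU-145 and 17.9% in BT-549). Of the 21 distal regions 5 were higher in DU-145 and 2 in BT-549, against 37.2% and 4.41% of all shared distal regions (41.6% called). With TMM factors the median of all shared regions moved from 0.24 to near zero, and 5 were higher in DU-145 and 6 in BT-549. The counts were 7 and 8 with the GC trend removed, 5 and 9 with DESeq2, and 7 and 6 with the sums of the whole tables. Over all shared regions the counts were 6813 and 6912 with TMM factors and 5107 and 5548 with the GC trend removed. They were 6428 and 7772 with DESeq2, and 7425 and 5955 with the sums of the whole tables.

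The LIN28B promoter region, at the middle TSS of the gene, changed in opposite directions in the lines, and the difference was -1.29 (SE 0.30, adjusted p = 0.000819). At the region upstream of POU5F1 the difference was 2.33 (SE 0.24, adjusted p = 4.41e-10), with mean levels of 2.54 without and 5.04 CPM per bin with DOX in DU-145, and of 3.25 without and 1.28 CPM per bin with DOX in BT-549. At the region upstream of KLF4 it was 2.51 (SE 0.35, adjusted p = 3.16e-07), with means of 0.338, 0.801, 4.96 and 2.003 CPM per bin in the same order. The levels of shared regions are scaled by the sum of the shared bins and are therefore higher than those given for each line alone. These 3 differences remained past the threshold under all 18 alternatives. None of the alternatives removes the filter of the tables, and the weak KLF4 region can have entered the DU-145 table through its DOX libraries alone. Those of 2 distal MYC regions and 1 distal MYCL region were -1.35 (SE 0.12, adjusted p = 1.7e-11) at chr8:127667801-127669600, 0.61 (SE 0.16, adjusted p = 0.00266) at chr8:127741601-127743800 and -3.01 (SE 0.54, adjusted p = 2.09e-05) at chr1:39934401-39934800. The MYC promoter differed by -0.33 (SE 0.11, adjusted p = 0.019), with a fall in DU-145 and no call in BT-549. That call was lost without BT-549 DOX replicate 3, BT-549 vehicle replicate 1 or 2, DU-145 DOX replicate 3 or DU-145 vehicle replicate 2 (adjusted p from 0.0504 to 0.0998). The difference of 0.61 was lost with TMM factors (0.36, adjusted p = 0.0765) and turned to -0.31 with the GC trend removed.

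**Figure D4:**
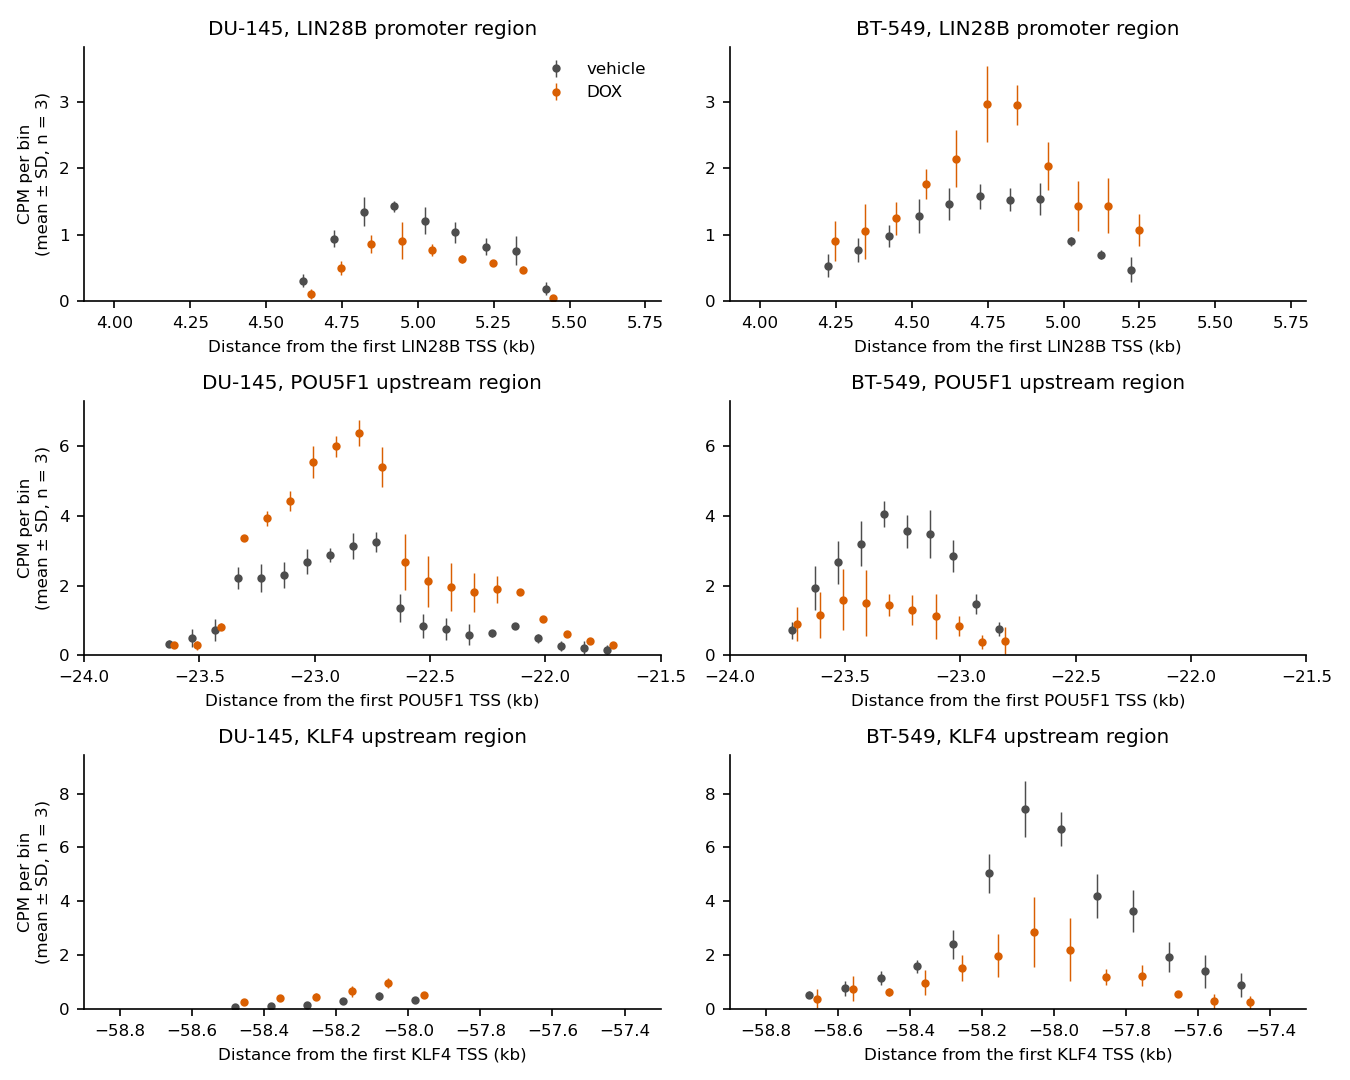
Mean level ± SD (n = 3 libraries) of each bin, in CPM per bin, at the LIN28B promoter and at the regions upstream of POU5F1 and KLF4, with DU-145 on the left and BT-549 on the right, against the distance from the first TSS of the gene in kb (negative is upstream). With DOX the LIN28B bins are lower in DU-145 and higher in BT-549, and the POU5F1 and KLF4 bins are higher in DU-145 and lower in BT-549; no point is drawn where a table holds no bin.

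The lines were compared in vehicle over the same shared regions. The MYC promoter was 1.85-fold more accessible in BT-549 than in DU-145 (-0.89 as DU-145 minus BT-549, SE 0.08, adjusted p = 4.2e-13), with means of 5.34 ± 0.400 and 2.89 ± 0.122 CPM per bin (SD, n = 3). The promoters of MYCL (0.56, SE 0.09, adjusted p = 1.27e-06) and SOX2 (1.03, SE 0.28, adjusted p = 0.00127) were higher in DU-145. The LIN28B promoter did not pass the test (-0.08, SE 0.20, adjusted p = 0.735), and with TMM factors the value was 0.21. The KLF4 promoter was slightly higher in BT-549 (-0.25, SE 0.09, adjusted p = 0.0127), but with TMM factors the sign turned (0.05, adjusted p = 0.659), and the call was lost without 1 BT-549 or either of 2 DU-145 vehicle libraries (adjusted p from 0.0581 to 0.0801).

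Around KLF4, distal regions differed in level between the lines in both directions. The one 57.9 kb upstream was 14.6-fold higher in BT-549 (-3.87, SE 0.24, adjusted p = 6.32e-18), whereas the one 14.2 kb upstream, at chr9:107504701-107505300, was 4.50-fold higher in DU-145 (2.17, SE 0.17, adjusted p = 1.66e-14). Around MYC, the region in PVT1 at chr8:127831201-127832300 was higher in DU-145 (1.24, SE 0.14, adjusted p = 2.96e-10), and the region at chr8:127760701-127761000 was higher in BT-549 (-1.52, SE 0.29, adjusted p = 1.33e-05). A region 95.8 kb downstream of POU5F1, at chr6:31070601-31071000, was higher in BT-549 (-1.41, SE 0.27, adjusted p = 1.83e-05). Of the 39 regions, 7 were higher in DU-145 and 16 in BT-549, against 25.1% and 46.7% of all shared regions (71.8% called). Among the 5 promoter regions 2 were higher in each line, against 34.6% in DU-145 and 36.7% in BT-549 (71.3% called). Among the 21 distal regions 3 were higher in DU-145 and 6 in BT-549, against 17% and 55.3% (72.3% called). Over the 39 regions, the counts were 10 and 11 with TMM factors, 12 and 11 with the GC trend removed and 10 and 10 with DESeq2. Over all shared regions they were 12064 and 12421 with TMM factors and 11687 and 11791 with the GC trend removed. With DESeq2 they were 12097 and 11780. With TMM factors the median of all shared regions moved from -0.36 to -0.07. DNA copy number differs between cancer lines, and it cannot be told apart from accessibility in this comparison.

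**Figure D5:**
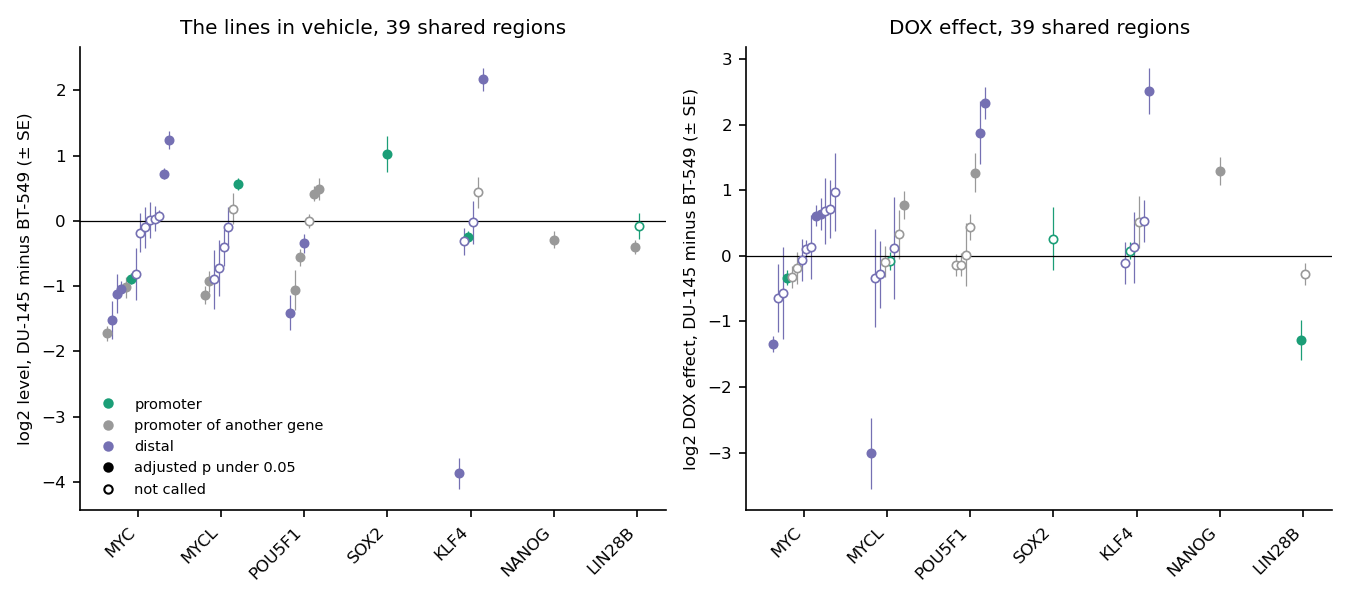
The 39 shared regions of the windows by gene, with the log2 level in vehicle, DU-145 minus BT-549 (left), and the log2 DOX effect, DU-145 minus BT-549 (right), each ± SE from edgeR. Filled points passed an adjusted p of 0.05. The KLF4 region at -3.87 on the left is the one at 2.51 on the right; the KLF4 promoter on the left turns sign with TMM factors.

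The peak lists of the single libraries give the presence of promoter peaks. The promoters of MYC, MYCL, KLF4 and LIN28B had a peak in all 12 libraries, and that of NANOG had none in any. A promoter peak was one within 1 kb of any TSS of the gene. The POU5F1 promoter had a peak in all 6 DU-145 libraries, with a fold enrichment over background of 18.2 to 29.1, and in 0 of 6 BT-549 libraries. The only POU5F1 promoter region in DU-145 was that at the most upstream TSS. MYCN had a promoter peak in all 6 DU-145 libraries, at 5.03-fold to 8.95-fold enrichment, and in 1 vehicle and 1 DOX library of BT-549, at 3.35-fold and 3.36-fold. SOX2 had one in all 6 DU-145 libraries and in all 3 vehicle but none of the 3 DOX libraries of BT-549, the group with the lowest summed coverage and the fewest peaks (30450 to 39837 a library). Per 10000 peaks of a library, the 8 windows held 8.79 ± 0.478 peaks with vehicle and 7.93 ± 0.368 with DOX in DU-145 (SD, n = 3, exact two-sided permutation test, p = 0.2). They held 10.7 ± 0.545 with vehicle and 9.16 ± 0.254 with DOX in BT-549 (p = 0.1 by the same exact permutation test, which with 3 libraries a group cannot go lower).

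The promoters of 16 other genes of the MYC network were examined next, among them the partner MAX, the MAX-binding repressors of the MXD family, MNT and MGA, the cofactor TRRAP, and the ubiquitin ligase subunit FBXW7 that marks MYC for degradation. For each gene of this list and of the next, the promoter region with the highest mean level in the line was taken. The shares of all promoter regions include weaker regions and are therefore not from a like set. In DU-145, 1 rose and 9 fell, against 17.5% and 27.9% of all promoter regions, with a median of -0.29 against -0.07. The falls included MXD1 (-0.56, SE 0.07, adjusted p = 1.99e-08), AURKA, a kinase that stabilizes MYCN (-0.52, SE 0.08, adjusted p = 1.43e-06), FBXW7 (-0.49, SE 0.11, adjusted p = 0.000396) and MAX (-0.24, SE 0.08, adjusted p = 0.00786), and MXD3 rose (0.26, SE 0.08, adjusted p = 0.00581). In BT-549, 7 rose and none fell, against 15.4% and 8.9% of all promoter regions, with a median of 0.30 against 0.06. The rises included MNT (0.68, SE 0.10, adjusted p = 1.01e-05), MXD3 (0.55, SE 0.11, adjusted p = 0.000247) and FBXW7 (0.48, SE 0.10, adjusted p = 0.000853). With the GC trend removed, 1 rose and 9 fell in DU-145, while 3 rose and 1 fell in BT-549. With TMM factors none rose and 12 fell in DU-145, and 7 rose and none fell in BT-549. Promoter regions above the median level had a median of -0.20 in DU-145 and of 0.10 in BT-549. With TMM factors these medians were -0.41 and 0.19, against -0.49 and 0.40 for the MYC network. With the GC trend removed they were -0.27 and -0.01, against -0.27 and 0.14. With loess offsets they were -0.09 and 0.05. With loess offsets, which remove a trend of the change with level, 3 rose and 7 fell in DU-145 (median -0.06), and 6 rose and 1 fell in BT-549 (median 0.28).

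Of 26 other genes of pluripotency and its regulation, 13 had a promoter region in DU-145 and 9 in BT-549. SALL4, TFCP2L1 and NR5A2 had one in both lines, ZFP42, ESRRB and LEFTY1 in DU-145 alone, and LIN28A, PRDM14 and NODAL in neither. In DU-145, none rose and 4 fell, a share near the 27.9% of all promoter regions that fell. They were KLF5, a factor of epithelial stem cells (-0.58, SE 0.08, adjusted p = 8.5e-08), STAT3, the effector of LIF signaling (-0.44, SE 0.08, adjusted p = 1.75e-05), TBX3 (-0.33, SE 0.07, adjusted p = 0.000132) and the DNA methyltransferase gene DNMT3B (-0.34, SE 0.12, adjusted p = 0.0142). In BT-549 the promoter of SMARCA4, which encodes the ATPase BRG1 of the BAF complex, was the 1 of 9 that rose (0.91, SE 0.15, adjusted p = 5.09e-05), against 15.4% of all promoter regions, and none fell. SALL4 had 0.525, 0.437 and 0.488 in the vehicle and 0.959, 1.40 and 0.703 CPM per bin in the DOX libraries of BT-549, without passing the test (1.03, SE 0.41, adjusted p = 0.0614). With TMM factors 6 fell in DU-145 and 3 rose in BT-549, with list medians of -0.31 and 0.26. All promoter regions above the median level then had medians of -0.41 and 0.19, and those below it -0.01 and 0.07.

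The 2 motifs printed in capitals above were counted in 300 bases around the highest bin of every region. In DU-145, 18 of the 47 distal regions of the windows held the AP-1 motif (38.3%), against 42.9% of all distal regions, and in BT-549 8 of 33 did (24.2%), against 29.3%. None of the promoter regions of the 8 genes held it, against 16.3% of all promoter regions in DU-145 and 8.74% in BT-549. The E-box was present in the promoter windows of KLF4 and POU5F1 in DU-145 and of KLF4 in BT-549, against 7.40% and 8.13% of all promoter regions. Among the distal regions it was present in 6 of 47 in DU-145 and 2 of 33 in BT-549, against 4.02% and 4.11% of all. A match describes the letters of the window and not the binding of a factor.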

How the data were processed

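ATAC-seq was measured in 12 libraries, 3 in each of 4 groups. Per the study's methods, the authors aligned reads with bwa-mem to GRCh38, removed duplicates, called peaks in each replicate with MACS2 at q under 0.05, merged them, kept peaks found in at least 3 replicates, and averaged coverage over 100-bp bins. The deposited bin values are thus mean fragment coverage, which need not be whole and was handled here as estimated counts. The deposited peak lists hold a fold enrichment (a ratio) and −log10 p-values and q-values from the authors' peak calls, of which the fold and the q were used.

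Bins were summed by region, rounded to whole numbers and kept at a total of at least 10. Library sums were the scaling. edgeR 4.0.16 (quasi-likelihood test, glmQLFit) in R 4.3.3 was fitted over all regions or bins of a table, with Benjamini-Hochberg adjustment, and over both lines for the shared regions. Levels of the lines were normalized separately except in the shared fit. The alternatives were TMM factors, DESeq2 1.42.0, loess offsets (limma 3.58.1), a GC trend, other filters, the highest bin, a promoter of 3 kb, a replicate block and leaving out each library. The fits were tested on simulated independent counts with a fixed spread. That test does not cover fragments counted in several bins. Peak counts were compared by an exact permutation test with scipy 1.17.1. Gene positions came from GENCODE v44, and sequences from GRCh38. The p-values measure the spread among replicates that the study calls biologically independent.

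The 8 genes and the gene lists were chosen with earlier results of these data known. Some genes of the lists and markers are not reported here by name. Named for each gene were its promoter region and the distal regions with the largest called rise and fall, and other regions named in the text were chosen after their values were seen. Coverage of a bin counts a fragment more than once over a region, so it is not a number of independent molecules, and the p-values may be too small.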

Additional observations from a re-analysis of the deposited data

Results flagged for a closer look

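The DOX effect differed between the lines, by the interaction test in edgeR, at 12 of the 39 shared regions. The values here are log2 differences, DU-145 minus BT-549. Around MYC they were -1.35 at chr8:127667801-127669600, -0.33 at the promoter, 0.61 at chr8:127741601-127743800 and 0.64 at chr8:127831201-127832300. Around MYCL they were -3.01 at chr1:39934401-39934800 and 0.77 at chr1:39954701-39956200, a promoter of another gene.

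Around POU5F1 the differences were 1.88 at chr6:31070601-31071000, 1.26 at chr6:31114201-31115400, a promoter of another gene, and 2.33 at chr6:31203501-31204400. At KLF4 the value was 2.51 at chr9:107548401-107549000, in the NANOG window it was 1.29 at chr12:7859901-7861000, and at the LIN28B promoter it was -1.29. The regions at -0.33, 0.61, 0.64 and 0.77 lost the call under at least 1 alternative, and the other 8 kept it under all 18. No alternative removes the filter of the tables. It can have set part of the values of 2.51 at KLF4 and -3.01 at MYCL, where 1 DU-145 group was scarcely accessible.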

How the results depend on the processing

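Of 804 alternative values for 51 single regions, 702 kept their direction and side of the threshold, 69 lost the call, 9 gained it and 24 turned sign. The cause was not tested. In DU-145, the rise at chr8:127741601-127743800 turned to -0.24 with the GC trend removed. With DESeq2, TMM factors and loess offsets the MYCN promoter was -0.055, -0.017 and -0.23, and it ranged from -0.014 to 0.51 when 1 library was left out, while the POU5F1 promoter was -0.083, -0.045 and -0.18. The KLF4 promoter was -0.072 with DESeq2, -0.037 with TMM factors and -0.059 at the highest bin. In BT-549, the MYC promoter was 0.0055 with DESeq2 and 0.0003 with TMM factors, the MYCL promoter was -0.20 with the GC trend removed and -0.014 with loess offsets, and the SOX2 promoter ranged from -0.19 to 0.61 when 1 library was left out, with -0.15 without DOX replicate 1 and -0.19 without DOX replicate 3. Between the lines in vehicle, DESeq2 and TMM factors gave 0.056 and 0.047 at the KLF4 promoter and 0.22 and 0.21 at the LIN28B promoter. With the GC trend removed the interaction was -0.31 at chr8:127741601-127743800 and -0.17 at chr8:127831201-127832300.

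Called regions numbered 7 at the highest bin in BT-549, against 13. DARs in DU-145 numbered 109 with the cutoff of BT-549 and 5 with DESeq2, against 31, and in BT-549 11 with the cutoff of DU-145 and 14 with DESeq2, against 31. Leaving out 1 library gave 31 to 36 regions and 15 to 27 DARs in DU-145, 8 to 12 regions and 17 to 30 DARs in BT-549, 20 to 23 regions between the lines and 10 to 13 interactions. The difference in peaks per 10000 ranged from -1.13 to -0.67 in DU-145 and from -1.90 to -1.42 in BT-549.

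The labels number the replicates, but same-numbered samples did not deviate together (correlations from -0.0349 to 0.0675), so the numbers were not read as pairs. With a replicate block, 36 regions and 35 DARs were called in DU-145, 12 regions and 31 DARs in BT-549 and 12 interactions. The block moved the KLF4 promoter of DU-145 past the threshold (adjusted p = 0.0461), the SOX2 promoter of BT-549 to -0.0098 and the MYCN region of BT-549 to an adjusted p of 0.0502. The low coverage of the BT-549 DOX libraries limits what can be detected at weak regions there.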
